A study of Mus musculus with 2 samples.

Results

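The Mir23a, Mir27a and Mir24-2 genes form 1 miRNA cluster and their paralogs Mir23b, Mir27b and Mir24-1 another. Their 5 mature 3p miRNAs (mmu-miR-23a-3p, mmu-miR-27a-3p, mmu-miR-24-3p, mmu-miR-23b-3p and mmu-miR-27b-3p, written below without the species prefix) were taken by name from the array, which held 1881 mouse miRNAs. The miRNAs were measured in LSKs, the lineage-negative, Sca1-positive and c-Kit-positive bone marrow cells that hold stem cells and early progenitors. All mice were C57BL/6 and carried both Scl/tTA, which drives the tetracycline transactivator from stem cell leukemia gene elements in stem and progenitor cells, and a BCR/ABL transgene under its control. Doxycycline in the drinking water (20 mg/L) kept BCR/ABL off in this tet-off model. The 0W_LSK group was sorted before the drug was withdrawn (week-0) and the 3W_LSK group 3 weeks after (week-3), and the age of the mice is not given in the sources used here. Each group was 1 pool of 3 mice on 1 array, so the 2 arrays allow no test between groups, and errors below are over replicate spots within an array. With no transgene-free pool withdrawn from the drug in parallel, BCR/ABL, the withdrawal itself, time and the single pools cannot be told apart.

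The 3 hairpins of a cluster are known to be transcribed together, and a miRNA guides silencing of mRNAs mainly through its seed, the stretch near its 5′ end. The clusters are known in mouse hematopoiesis for a part in lineage choice: enforced expression of the miR-23a cluster in progenitors favours myeloid cells over B cells, and the myeloid transcription factor PU.1 activates its promoter. miR-27 is known to target the hematopoietic transcription factor RUNX1, miR-23 to target glutaminase in human cells, and miR-24 to target the histone H2AX in human blood cells.

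The mature sequences are shown because the miR-27 paralogs are nearly identical and differ outside the seed. RefSeq (GRCm38.p6) gave the sequence of 4 of the 5 members, all on the plus strand. It gave none for miR-23b-3p, so the seeds of the miR-23 pair were not compared. The seed (bases 2 to 8) is in capitals.
miR-23a-3p: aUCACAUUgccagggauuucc
miR-27a-3p: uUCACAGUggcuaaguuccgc
miR-27b-3p: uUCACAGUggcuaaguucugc
miR-24-3p: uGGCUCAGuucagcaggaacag
miR-27a-3p and miR-27b-3p share their seed and differ by 1 base, C19U, counted from the 5′ end of miR-27a-3p. miR-24-3p has the same sequence at both loci, so its signal cannot be assigned to either cluster.

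The miR-23a cluster lies on chromosome 8 from 84208518 to 84208921, a span of 404 bases outside any protein-coding gene, 2020 bases from Zswim4. Its mature miR-23a-3p runs from 84208563 to 84208583, miR-27a-3p from 84208727 to 84208747 and the copy of miR-24-3p from 84208875 to 84208896. The miR-23b cluster lies on chromosome 13 from 63300484 to 63301275, a span of 792 bases within the gene Aopep, an aminopeptidase. There, miR-27b-3p runs from 63300760 to 63300780 and the copy of miR-24-3p from 63301251 to 63301272. Whether these positions are exonic or intronic was not analysed here.

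Each member had 2 probes on the array, each printed on up to 15 spots. The probes are shown because those of paralogs differ by 1 base over their shared length. The longer probe of each member is given below as in the scanner files, with the base that differs between paralogs in capitals.
miR-23a-3p probe: ggAaatccctggcaatgt
miR-23b-3p probe: ggTaatccctggcaatg
miR-27a-3p probe: gcGgaacttagccactg
miR-27b-3p probe: gcAgaacttagccactg
miR-24-3p probe: ctgttcctgctgaactga
Counted from the 5′ end of the probe, the difference was A3T from miR-23a-3p to miR-23b-3p and G3A from miR-27a-3p to miR-27b-3p. The longer miR-23a-3p probe also has 18 bases, against 17 for that of miR-23b-3p. The shorter probes lack the last base of the longer ones. For the 4 members with a RefSeq sequence, the probes pair with most of the miRNA up to its 3′ end, including part of the seed. The longer probes pair, for example, with bases 4 to 21 of miR-23a-3p and bases 5 to 21 of miR-27a-3p. Binding of a miRNA to the probes of its paralog was not tested.

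All 5 members were detected on both arrays. miR-23a-3p was 1.63-fold lower at week-3, miR-27b-3p was 1.69-fold higher, and the others had differences between these. Neither stayed past a ratio of 0.67 or 1.5 under every processing: miR-23a-3p had -0.58 on the log2 scale with outlier spots kept and -0.44 with normexp, a background correction with an offset, and miR-27b-3p was 1.49-fold higher without scaling and had 0.28 with normexp. On the log2 scale the differences between week-3 and week-0 after quantile normalization were -0.70 (SE 0.02) for miR-23a-3p, -0.30 (SE 0.03) for miR-27a-3p, -0.09 (SE 0.02) for miR-24-3p, 0.32 (SE 0.02) for miR-23b-3p and 0.76 (SE 0.04) for miR-27b-3p. These SEs were computed from the unscaled spot signals and leave out any error of the scaling. Both members encoded only on chromosome 8 thus had values below 0 and both encoded only on chromosome 13 values above 0, although that of miR-23b-3p was -0.01 without scaling and 0.04 with arrays scaled to the 75th percentile of all miRNAs. miR-24-3p, encoded in both clusters, had a value between these. At the study's thresholds (a week-3 to week-0 ratio of at least 1.5 or at most 0.67), 1 of the 5 was higher, against 25.8% of the 213 miRNAs detected on at least 1 array, and 1 of the 5 was lower, against 28.6%. These shares are close to the background, so the count is no result about the clusters. In bulk RNA, a lower signal from fewer cells of a type and from less miRNA per cell cannot be told apart.

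miR-23a-3p had the lowest difference of the members. On its longer probe the signals, in arbitrary units without scaling between arrays, ran from 218 through a median of 237 to 253 at week-0, and from 99.6 through 114 to 122 at week-3. Here and for the other members, ranges, means and SDs leave out spots flagged as outliers. Among the spots kept, week-0 and week-3 did not overlap on this probe, nor on the shorter one. With outlier spots included the normalized difference of miR-23a-3p was -0.58 instead of -0.70, and overlap was not examined with them. The longer probe averaged 235 ± 9.42 (SD, n = 15 spots) before withdrawal and 114 ± 5.94 (SD, n = 13 spots) after it, a ratio of 0.484. The shorter probe averaged 70.4 ± 7.03 (SD, n = 15 spots), then 36.8 ± 3.72 (SD, n = 14 spots), a ratio of 0.522. The summed signal of both probes went from 306 to 150, and its rank among all miRNAs from 42 to 53.

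miR-27a-3p, encoded next to miR-23a-3p, was lower by less. Its longer probe ran from 144 through a median of 153 to 164 at week-0, and from 74.6 through 96.1 to 105 at week-3. These ranges did not overlap, whereas those of the dimmer probe (48.1 to 71.8 and 30.4 to 50.9) overlapped slightly. The means went from 153 ± 6.01 to 93.1 ± 7.70 on the longer probe and from 61.8 ± 6.01 to 39.9 ± 6.25 on the shorter (SD, n = 15 spots each), ratios of 0.606 and 0.645. After normalization the ratio was 0.814, short of 0.67, while it was 0.617 with no scaling and 0.652 in the authors' normalized table, both past it. The side of the threshold thus depended on the scaling.

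miR-24-3p had the longer probe's signals from 169 through 181 to 203 at week-0 and from 116 through 139 to 155 at week-3. The spots of the longer probe did not overlap between arrays, and those of the shorter did (118 to 148 and 102 to 120). The means went from 184 ± 11.4 to 137 ± 10.7 (SD, n = 15 spots each), a ratio of 0.743. On the shorter probe they went from 136 ± 8.18 (SD, n = 15 spots) to 110 ± 4.50 (SD, n = 13 spots), a ratio of 0.805. The miRNA kept nearly the same rank, 39 at week-0 and 42 at week-3. Its normalized difference was close to the median of the 158 miRNAs detected on both arrays, which was -0.04. Without scaling miR-24-3p had -0.38, further below a median of -0.18.

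**Figure D1:**
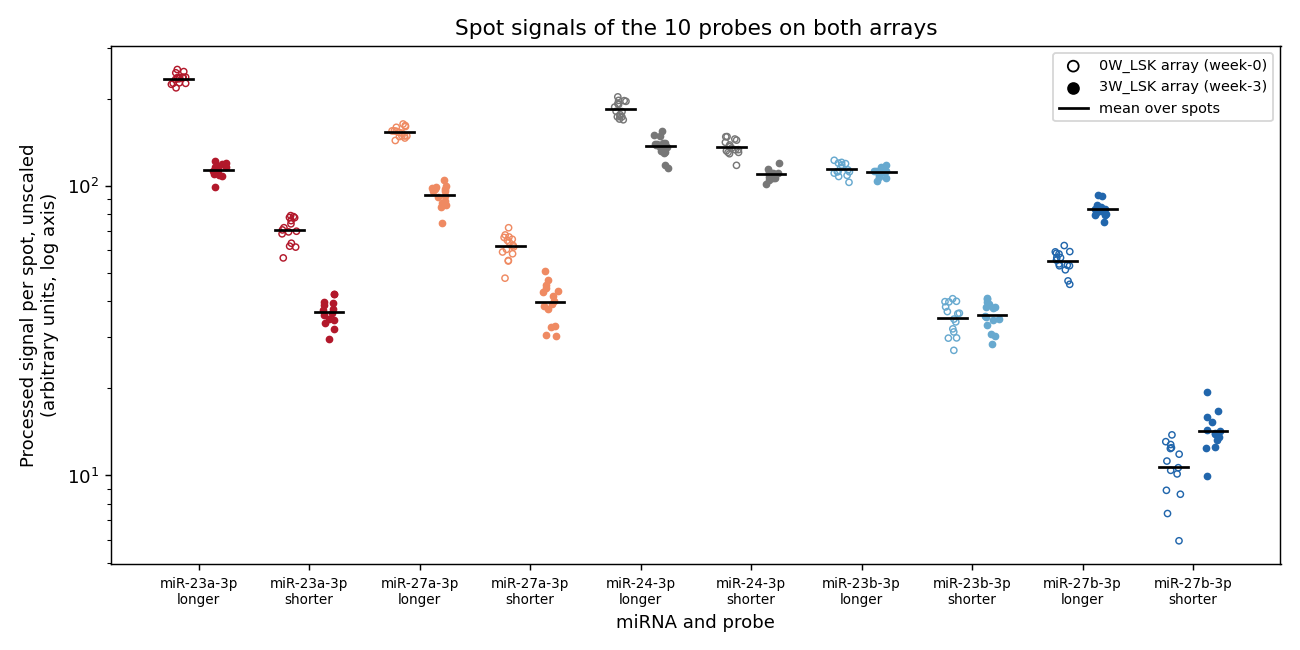
Processed signal of each spot (log axis, arbitrary units, not scaled between arrays) for the longer and the shorter probe of the 5 miRNAs, with open circles for the week-0 array, filled circles for the week-3 array and lines for means over spots. Outlier spots are left out. Both miR-23a-3p probes separate downward at week-3, the miR-23b-3p probes coincide, and the longer miR-27b-3p probe goes from a mean of 54.9 to 83.3.

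miR-23b-3p, the paralog on chromosome 13, had nearly equal unscaled signals on both arrays. Its longer probe ran from 103 through 113 to 123 at week-0 and from 104 through 113 to 118 at week-3. The ranges overlapped almost fully, as did those of the shorter probe (27.1 to 40.8 and 28.5 to 41.2). The means went from 114 ± 5.65 to 112 ± 3.82 (SD, n = 14 spots each) on the longer probe, a ratio of 0.981, and from 35.1 ± 4.32 to 35.8 ± 3.92 (SD, n = 15 spots each) on the shorter, a ratio of 1.02. Its rank went from 63 to 55. The normalized difference of 0.32 therefore came with the scaling, and the sign was the opposite without it (-0.01).

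miR-27b-3p was the dimmest member and the one with the highest difference. Its longer probe ran from 45.8 through 55.4 to 62.3 at week-0 and from 75.1 through 82.7 to 93.5 at week-3. The spots of this probe did not overlap, whereas those of the shorter one did (5.95 to 13.8 and 9.94 to 19.5). The means went from 54.9 ± 4.58 (SD, n = 15 spots) to 83.3 ± 5.03 (SD, n = 13 spots), a ratio of 1.52. The shorter probe went from 10.7 ± 2.30 (SD, n = 14 spots) to 14.3 ± 2.30 (SD, n = 13 spots), a ratio of 1.34. On that probe 0 of 14 spots at week-0 and 2 of 13 at week-3 were well above background, so the value of miR-27b-3p rests on the longer one. The rank of its summed signal went from 102 to 70.

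The log2 ratios were -1.05 and -0.94 for miR-23a-3p, -0.72 and -0.63 for miR-27a-3p, -0.43 and -0.31 for miR-24-3p, -0.03 and 0.03 for miR-23b-3p, and 0.60 and 0.42 for miR-27b-3p (longer and shorter probe). For the 4 members other than miR-27b-3p the widest gap between probes was 0.12 (SE 0.05), for miR-24-3p. The shorter miR-27b-3p probe, not well above background on most spots, gives no second measure of that miRNA.

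**Figure D2:**
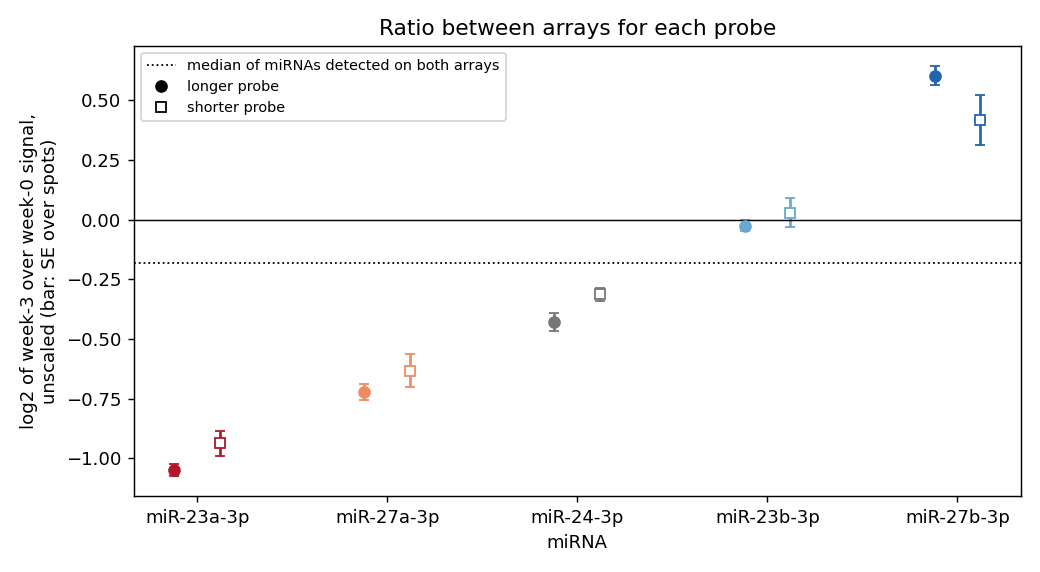
Log2 of the week-3 over the week-0 signal for each probe, unscaled, with bars for the SE over spots and a dotted line at the median of the 158 miRNAs detected on both arrays (-0.18). The miR-23a-3p, miR-27a-3p and miR-24-3p probes lie below this line and the miR-23b-3p and miR-27b-3p probes above it.

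The week-3 to week-0 ratio was lower for the a paralog than for the b paralog in both pairs. A factor common to an array cancels when the difference of the b member is taken from that of the a member. For miR-23 this contrast was -1.02 (SE 0.03), so that the ratio of week-3 to week-0 was 2.03-fold lower for miR-23a-3p than for miR-23b-3p, and -1.01 without scaling. For miR-27 it was -1.06 (SE 0.05), or 2.08-fold, and -1.27 or 2.41-fold without scaling. In the authors' table the contrasts were -1.13 and -1.29. Over the 4 pairings of a miR-23a-3p probe with a miR-23b-3p probe the unscaled contrast ran from -1.08 to -0.91. With the longer miR-27b-3p probe it was -1.32 and -1.24 for the miR-27a-3p probes. The SE covers spots only, and neither contrast has a replicate check between pools. The contrasts are also not separate checks of each other, since hairpins of a cluster are transcribed together and both contrasts come from the same arrays.

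Within each cluster, miR-27 had the higher difference of the neighbours. It exceeded that of miR-23 by 0.41 (SE 0.04) on chromosome 8 and by 0.45 (SE 0.04) on chromosome 13, which was 0.33 and 0.59 without scaling. This comparison was chosen after the values were seen. In the order of the differences, miR-27a-3p and miR-24-3p were the closest neighbours, 0.20 apart (SE 0.04), and each other step was 0.41 to 0.45. Without scaling the steps from miR-23a-3p upward were 0.33, 0.32, 0.36 and 0.59, so this spacing depended on the scaling. The order of the 5 members was the same under the 13 alternatives, but these are not 13 separate checks: no scaling and both scalings by 1 factor per array (a 75th percentile) must give the same order as each other, and the 2 floors lie below these signals and cannot move them.

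**Figure D3:**
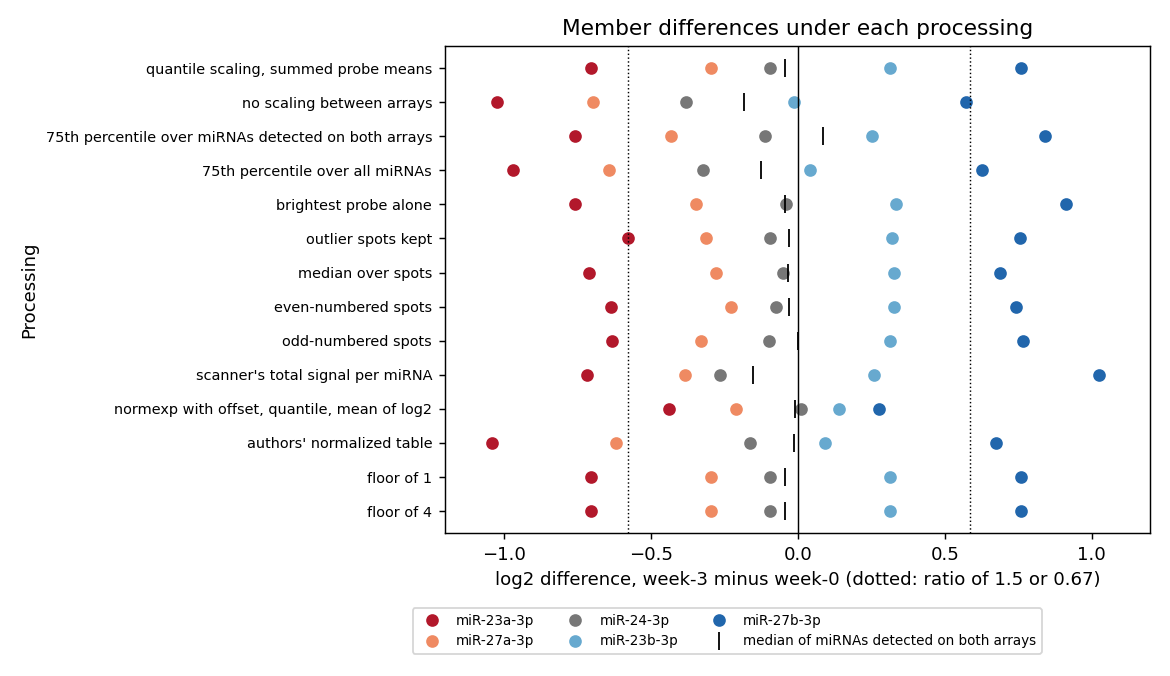
Log2 difference between week-3 and week-0 of the 5 members (points) and the median of the miRNAs detected on both arrays (ticks) under the quantile scaling used here and 13 alternatives, with dotted lines at ratios of 1.5 and 0.67. The miRNAs keep their order from miR-23a-3p to miR-27b-3p in each row.

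Among the 158 miRNAs detected on both arrays, ranked from the lowest difference, miR-23a-3p was at place 37, miR-27a-3p at 61, miR-24-3p at 77, miR-23b-3p at 106 and miR-27b-3p at 134. The members thus spread over much of the distribution, from place 37 to place 134, and did not lie at its extreme ends. By the distance between normalized log2 values over the 2 arrays, the miRNAs most like miR-23a-3p were miR-107-3p (distance 0.17, difference -0.60) and miR-26b-5p (0.45, difference -1.29). Those most like miR-27a-3p were miR-103-3p (0.16, difference -0.23) and miR-3473f (0.33, difference 0.15). The nearest to miR-24-3p were miR-93-5p (0.28) and miR-690 (0.38), the nearest to miR-23b-3p miR-3473a (0.24) and miR-6937-5p (0.29), and the nearest to miR-27b-3p miR-5128 (0.15) and miR-7686-5p (0.20). With 2 arrays, likeness means only a similar signal on both.

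**Figure D4:**
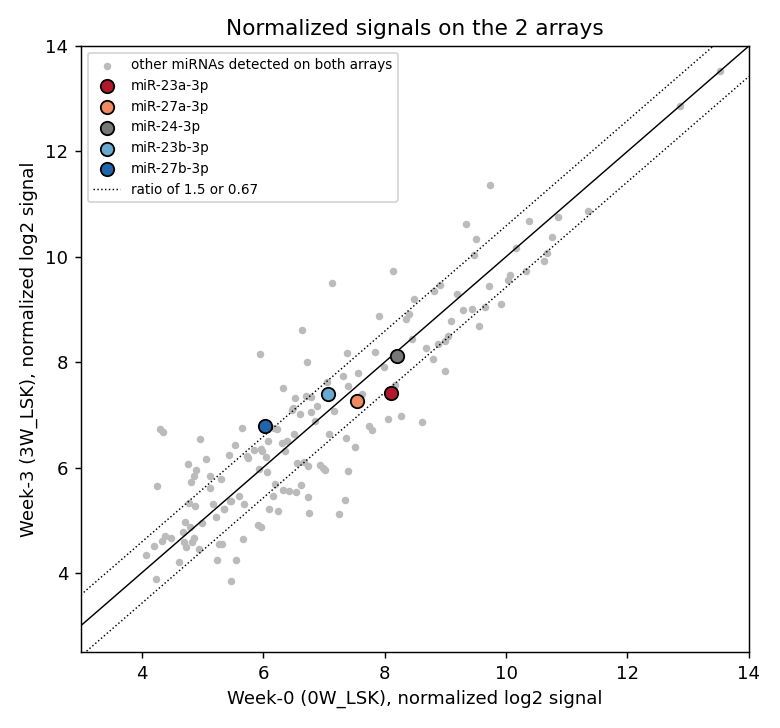
Normalized log2 signal at week-0 (x axis) and week-3 (y axis) of the 158 miRNAs detected on both arrays, with the 5 members in colour, the line of equality and dotted lines at ratios of 1.5 and 0.67. miR-23a-3p lies below the lower dotted line and miR-27b-3p above the upper one.

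The 5p arms of the same hairpins were not detected. None of the 6 (miR-23a-5p, miR-27a-5p, miR-24-1-5p, miR-24-2-5p, miR-23b-5p and miR-27b-5p) was flagged on either array, and the same held for 3 miRNAs of the Mir3074 hairpins that overlap the miR-24 genes. The probe means of these 9 miRNAs ran from -6.48 to 4.56, a range around 0, the level that background subtraction leaves. The arms that could assign miR-24 to a locus, miR-24-1-5p and miR-24-2-5p, thus gave no measure of either locus. In RefSeq, 4 other miRNAs hold the miR-24 seed (miR-5124b, miR-6369, miR-6410 and miR-6413), and 0 of the 4 were detected. No other entry there holds the seed of miR-27.

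Other miRNAs known from the choice between myeloid and lymphoid fate were read against the same background, 25.8% higher and 28.6% lower of the 213 detected. Of 7 with myeloid roles, 7 were detected (1 at week-0 only), 1 was higher and 3 lower, with a median log2 difference of -0.57, beside 0.00 for all 213 detected. The 7 were miR-223-3p, miR-21a-5p, miR-322-5p, miR-155-5p, miR-146a-5p, miR-142a-3p and miR-142a-5p. The last 2 are arms of 1 hairpin and mark blood cells in general, so the 7 are not separate myeloid measures. The 3 lower were miR-322-5p, miR-142a-5p and miR-146a-5p, which was not detected at week-3. miR-223-3p, which marks granulocytes, was 1.79-fold higher (0.84, SE 0.02), although it stayed short of 1.5-fold without scaling, and also where arrays were scaled by their 75th percentile over the whole set. Without scaling 0 of the 7 were higher and 5 lower, against 20.2% and 35.7% of the 213. miR-155-5p, an immune and inflammatory regulator, had -0.57 (SE 0.04). Of 7 with lymphoid roles 6 were detected (2 at week-0 only), 0 were higher and 5 lower, with a median of -1.31. This list held miR-181a-5p, miR-181b-5p, miR-150-5p (not detected), miR-128-3p, miR-342-3p, miR-17-5p and miR-34a-5p. miR-181a-5p and miR-181b-5p belong to the same family, so these are not separate lymphoid measures either. miR-181a-5p, known for its role in B and T cell development, had -1.30 (SE 0.06), and miR-17-5p, the member short of the threshold, 0.29 (SE 0.12). With the background corrected by normexp with an offset, which draws dim signals together, 1 of the 7 myeloid miRNAs and 0 of the 6 lymphoid ones were lower, against 5.16% of the 213.

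Some markers of LSKs and of other cells also differed between the arrays, while most markers of other cells were not detected. The 5 stem and progenitor miRNAs (such as miR-125b-5p, which maintains stem cells) were all detected at week-0, whereas 4 were at week-3. All 5 were lower, against 28.6% of the 213 detected, and their summed unscaled signal went from 1084 to 274. With normexp 4 of the 5 were lower, against 5.16% of the 213. miR-223-3p went from 820 to 1121, while miR-223-5p was not detected on either array. The erythroid miR-451a, detected at week-0 only, went from 48.9 to 8.95, and the erythroid miR-144-3p and miR-486a-5p were not detected. The general blood markers miR-142a-3p and miR-142a-5p had normalized log2 differences of -0.42 and -0.80. The lymphocyte miR-150-5p was not detected, nor was any of 4 endothelial or stromal and 3 other-tissue miRNAs. Their part in the differences of the clusters was not tested.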

How the data were processed

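Sorted LSK RNA carried the Cy3 dye on Agilent mouse miRNA arrays, and Feature Extraction 10.7.1.1 was run by the authors on the scans, with mm9 named in the header. In the deposited scanner files each spot has intensity values, of which the processed signal is background-subtracted but not normalized between arrays, and flags for detection, outliers and saturation. The authors also deposited normalized signals on a log2 scale, quantile normalized with AgiMicroRna per the methods (column medians 2.48 and 2.48). The series table equalled them within 4.92e-09. Starts in that table equal those of RefSeq GRCm38.p6 for the 4 members compared.

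Control spots and outlier spots (1941 at week-0, 1600 at week-3) were left out, no miRNA spot was saturated (0), and processed signals were averaged per probe, summed per miRNA, quantile normalized over 1881 miRNAs, floored at 0.5 and put on the log2 scale (Python 3.11.15, R 4.3.3, limma 3.58.1). SEs combine the spots of both arrays, and the number of arrays limits the precision. They were computed from unscaled signals, also where they stand beside normalized differences. The steps were tested on simulated data. The week-0 array detected 178 miRNAs and the week-3 array 193, with median signals of 85.3 and 71.4. The text names all 5 members with their probes, the other arms of their hairpins, miRNAs of the same seed, the 2 nearest miRNAs of each, and the lists. Alternatives were other scalings, probe summaries, floors, the authors' table and a 2-fold threshold. The members, lists and processing were chosen with earlier results of these data known.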

Additional observations from a re-analysis of the deposited data

How the results depend on the processing

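Of the 13 alternatives, the difference of miR-23a-3p was below 0 in 13 and at most 0.67-fold in 11, and that of miR-27b-3p above 0 in 13 and at least 1.5-fold in 11. miR-23a-3p had -1.02 without scaling, -0.97 with the 75th percentile of all miRNAs, -0.58 with outlier spots kept, -0.44 with normexp and an offset of 50, and -1.04 in the authors' table. For miR-27a-3p the values were -0.70 without scaling, -0.43 with scaling to the 75th percentile of miRNAs that both arrays detected, -0.64 with that over all, and -0.62 in the authors' table. miR-24-3p had -0.38 without scaling, -0.32 with the 75th percentile of all miRNAs, -0.26 with the scanner's total signal and 0.011 with normexp. miR-23b-3p had -0.014 without scaling, 0.041 with the 75th percentile of all miRNAs, 0.14 with normexp and 0.094 in the authors' table. miR-27b-3p had 0.57 without scaling, 0.91 with the brightest probe alone, 1.03 with the scanner's total signal and 0.28 with normexp. The miR-23 contrast was -0.58 with normexp. The miR-27 contrast was -1.27 without scaling and with either 75th percentile, -1.26 with the brightest probe, -1.41 with the scanner's total signal, -0.49 with normexp and -1.29 in the authors' table. Both contrasts were below 0 under all 13, which are not separate outcomes: the 2 floors cannot move the members, and no scaling and both 75th percentile scalings give the same contrast by construction. The members past 1.5-fold upward were 0 without scaling, with normexp and at 2-fold, against 1. Those downward were 2 without scaling, with the 75th percentile of all miRNAs, and in the authors' table, and 0 with outlier spots kept, with normexp and at 2-fold, against 1. The offset of normexp draws ratios of dim signals toward 1 by construction. For the other changes the cause was not tested. Over all detected miRNAs the split of higher to lower was 55 to 61, 43 to 76 without scaling, 45 to 74 with the 75th percentile of all miRNAs, 11 to 11 with normexp, 66 to 60 with the 75th percentile of miRNAs that both arrays detected, and 71 to 68 when the scanner's total signal was used. Leaving out a replicate could not be run with 1 array per group. No paired analysis was possible because each group has 1 array and the labels pair no samples. The dim shorter miR-27b-3p probe limits that value.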
